A study of Mus musculus with 30 samples.

Results

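The collagens are the main structural proteins of connective tissue, and their chains were measured here as 44 genes of the 43346 rows in the count table, chosen as every row whose gene symbol has the form Col, a number, a and a number. All 44 were present in the table for all 30 libraries. Each library holds total RNA of 50000 GFP-negative stromal cells sorted from bone, lung or brain of female NSG mice, an immunodeficient strain. The protocol given for all groups names mice of 6 to 8 weeks with slow-release estrogen under the skin. Exposed mice had received 100000 GFP- and luciferase-labelled cells of a cultured circulating tumour cell (CTC) line into the left cardiac ventricle. The bone exposed group had 13 libraries, from mice given Brx07 (replicates 1 and 2, a leg and a skull sample whose labels share a code), Brx50 (replicates 3 to 6) or Brx68 (replicates 7 to 13). The lung exposed group had 7 libraries, from Brx07 (replicates 1 and 2), Brx42 (replicate 3), Brx50 (replicates 4 to 6) and Brx68 (replicate 7). All 3 brain exposed libraries came from Brx50. Tissue without CTC exposure gave 3 bone, 2 lung and 2 brain control libraries. NSG mice lack functional lymphocytes, so every group, controls included, is a stroma without a full immune system. Several title codes recur across tissues, and bone exposed 5 (Brx50) and bone exposed 12 (Brx68) share a code. The labels do not say whether a shared code is a shared mouse, so p-values measure the spread between these libraries.

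Collagens are built from chains that wind into a triple helix. Fibrillar collagens form the tension-bearing cables of bone, skin and interstitium, and type I collagen is a trimer of Col1a1 and Col1a2 chains. Type IV collagens form the sheet under epithelia and around vessels, with the Col4a1 and Col4a2 chains in nearly every basement membrane and the Col4a3, Col4a4 and Col4a5 chains in the specialised membranes of alveolus and kidney. Cartilage collagens make the thin fibrils of growth plate and joint. The remaining chains include the beaded filaments of type VI, molecules that decorate fibrils, and transmembrane collagens. Here the family was grouped as 8 fibrillar, 9 basement membrane, 7 cartilage and 20 other chains.

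Several type IV chains are neighbours that start back to back. Col4a1 (chromosome 8, 11198423 to 11312826, minus strand, GRCm38) and Col4a2 (chromosome 8, 11312805 to 11449287, plus strand) have starts 21 bp apart and overlap by 22 bp. Col4a3 (chromosome 1, 82586921 to 82722059, plus strand) and Col4a4 (chromosome 1, 82448423 to 82586849, minus strand) have starts 72 bp apart. Col4a5 and Col4a6 on chromosome X have starts 1309 bp apart. Promoter windows of 250 bases before to 50 after the RefSeq start (GRCm38.p6) were found for 35 of the 44 genes, in 38 windows, and the other 9 (Col1a1, Col2a1, Col4a3, Col5a2, Col9a3, Col12a1, Col14a1, Col22a1 and Col26a1) were not in that table. The 4 below are shown because their chains are partners in a heterotrimer and their ratios are followed through all libraries further on. Each is written 5′ to 3′ on its gene's strand, in lower case, with GC boxes (GGGCGG) and CCAAT boxes (CCAAT) of either strand in capitals, the reverse forms being CCGCCC and ATTGG.
Col1a2 (chr6:4505368-4505667, plus strand): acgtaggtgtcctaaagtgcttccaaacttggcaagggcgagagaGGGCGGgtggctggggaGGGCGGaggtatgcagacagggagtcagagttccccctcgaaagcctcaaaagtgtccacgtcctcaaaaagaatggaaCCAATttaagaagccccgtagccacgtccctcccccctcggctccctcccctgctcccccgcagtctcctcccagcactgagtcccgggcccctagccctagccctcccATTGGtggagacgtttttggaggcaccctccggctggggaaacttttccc
Col4a1 (chr8:11312777-11313076, minus strand): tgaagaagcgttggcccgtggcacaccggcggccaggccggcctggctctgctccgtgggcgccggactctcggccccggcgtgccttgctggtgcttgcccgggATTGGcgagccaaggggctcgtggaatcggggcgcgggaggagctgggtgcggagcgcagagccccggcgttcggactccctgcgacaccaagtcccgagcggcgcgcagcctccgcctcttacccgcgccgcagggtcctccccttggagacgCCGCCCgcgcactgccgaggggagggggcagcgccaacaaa
Col4a2 (chr8:11312555-11312854, plus strand): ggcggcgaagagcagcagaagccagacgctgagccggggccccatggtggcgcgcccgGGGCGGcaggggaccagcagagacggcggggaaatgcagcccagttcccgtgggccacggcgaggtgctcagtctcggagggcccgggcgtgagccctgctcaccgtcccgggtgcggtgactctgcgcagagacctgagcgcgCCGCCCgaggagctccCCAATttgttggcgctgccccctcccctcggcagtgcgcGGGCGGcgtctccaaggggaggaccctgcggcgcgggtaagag
Col4a4 (chr1:82586800-82587099, minus strand): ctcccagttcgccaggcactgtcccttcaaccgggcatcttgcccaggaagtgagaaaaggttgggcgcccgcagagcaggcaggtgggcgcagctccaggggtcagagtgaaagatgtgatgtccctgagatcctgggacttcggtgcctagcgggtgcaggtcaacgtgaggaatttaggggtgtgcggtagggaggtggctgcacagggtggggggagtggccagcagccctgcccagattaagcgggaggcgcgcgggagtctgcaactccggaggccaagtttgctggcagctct

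Windows of Col4a1 and Col4a2 share 78 bases (chr8:11312777-11312854), read in opposite directions. The Col4a2 window held 3 GC boxes and 1 CCAAT box, that of Col4a1 held 1 of each, that of Col1a2 held 2 of each, and that of Col4a4 had neither. None of the 4 held the letters TATAAA. Over the family a GC box was present in 60.5% of the 38 windows, against 35.7% of the 32851 windows of the same length in the whole promoter table. A CCAAT box was present in 34.2% against 37.4%, and TATAAA in 13.2% against 13.6%. These matches describe the letters in the windows only.

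Depth ran from 4289012 to 15646947 counts per library, the shallowest being brain exposed 1. Genes detected, with a count above 0, numbered 16344, 19139 and 23074 in exposed brain 1, 2 and 3. Brain controls had 23736 and 24146. Bone exposed 7 and 12 had 14769 and 16256, beside 22875 to 22917 in bone controls. Markers of the labelled tissue were present in the controls: alveolar epithelium (6 genes) summed to 1408 and 2080 CPM (counts scaled to a library total of 1000000) in lung, astrocyte genes (5) to 5986 and 5852 CPM in brain, and osteoblast genes (8) to 299 to 415 CPM in bone. Several exposed libraries stood apart from their labels' tissue. Lung exposed 1 had 113 CPM of alveolar and 1254 CPM of endothelial markers with 4905 CPM of fibroblast markers, where the lung controls had 5234 and 6047 CPM endothelial and 598 and 758 CPM fibroblast. Lung exposed 6 had 424 CPM alveolar, 168 CPM endothelial and 143 CPM fibroblast markers. In bone, the 6 marrow myeloid genes summed to 20425 to 27018 CPM in the controls but to 2.69 to 947 CPM in exposed replicates 3, 6, 7, 8, 9, 12 and 13. In bulk libraries of sorted cells, more cells of a type and more RNA per cell cannot be told apart.

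**Figure D1:**
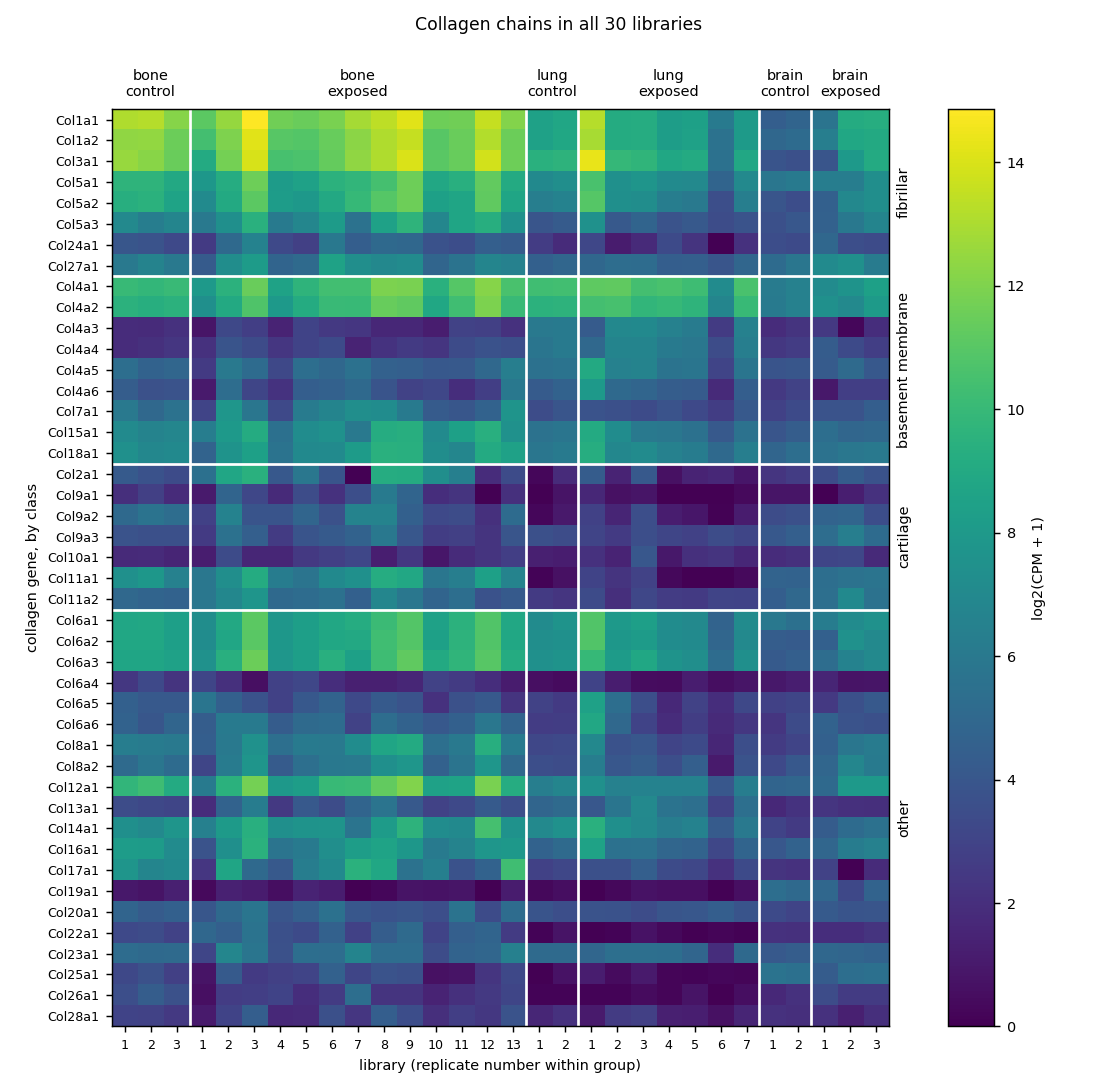
Levels of the 44 collagen genes (rows, by class) in the 30 libraries (columns, by group and replicate number), as log2(CPM + 1) in color. Col1a1, Col1a2 and Col3a1 fill the bright bone rows, lung exposed 1 is bright for the same 3 genes, lung exposed 6 holds the lowest exposed-lung value of 32 of the 44, and Col19a1 and Col25a1 stand out in brain.

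The first comparison asks where each chain is found in tissue not exposed to CTCs. Collagens made up 1.60% to 2.74% of all counts in the 3 bone controls, 0.485% and 0.547% in the 2 lung controls and 0.0790% and 0.0920% in the 2 brain controls. Bone held the highest level of 33 of the 44 genes, lung of 7 and brain of 4. For 29, 5 and 3 of these the leading tissue passed the test against both others. These counts were not made over all genes, so they describe the members only. Between lung and bone, 38 of the 44 genes differed (5 higher and 33 lower in lung) by edgeR's quasi-likelihood test with Benjamini-Hochberg adjustment at 0.05. Among all 18859 genes tested the share called was 44.8%, with 22.3% higher and 22.5% lower in lung. Brain differed from bone in 39 genes (3 higher and 36 lower in brain), beside 75.8% of all genes (38.9% higher and 37.0% lower). Lung differed from brain in 32 genes (23 higher and 9 lower in lung), beside 72.0% of all genes (34.6% higher and 37.4% lower). The median log2 difference over the family was -1.84 for lung over bone and -2.29 for brain over bone. The 3 comparisons share control libraries, so they are given side by side and not as separate evidence.

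Among the fibrillar chains, Col1a1, Col1a2, Col3a1, Col5a1 and Col5a2 differed in all 3 comparisons, in the order bone, lung, brain. Col1a1 (ENSMUSG00000001506, chromosome 11, 94936224 to 94953042), the main chain of bone matrix, stood at 8577, 9601 and 4500 CPM in the bone controls, 369 and 450 CPM in lung and 20.6 and 26.5 CPM in brain. The groups did not overlap, and the log2 difference was -4.18 ± 0.34 (SE) for lung over bone (adjusted p = 2.3e-06) and -8.47 ± 0.43 for brain over bone (adjusted p = 1.02e-08). Its partner Col1a2 had 5356, 5632 and 2925 CPM in bone, 361 and 461 CPM in lung and 29.98 and 36.2 CPM in brain, with a lung over bone difference of -3.47 ± 0.30. Col3a1, the fibril chain of elastic and vascular tissue, had 5981, 4839 and 2847 CPM in bone, 705 and 784 CPM in lung and 13.6 and 11.2 CPM in brain. The fibrillar chain with the highest level per kilobase of transcript was not the same in each tissue. It was Col1a1 in bone (1275 CPM per kb, mean of 3), Col3a1 in lung (134, mean of 2) and Col5a1 in brain (7.41, mean of 2).

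All 8 fibrillar chains were called lower in lung than in bone, beside 22.5% of all genes. In brain 7 of the 8 were called lower than in bone, beside 37.0% of all genes. Col24a1 was the exception, with 14.8, 13.2 and 8.70 CPM in bone and 10.4 and 8.93 CPM in brain (adjusted p = 0.154). Col5a1 and Col5a2 are minor chains that limit fibril diameter. Col5a1 had 825, 797 and 508 CPM in bone and 56.6 and 68.0 CPM in brain, a log2 difference of -3.66 ± 0.24. Col5a2 had 645, 730 and 391 CPM in bone and 14.0 and 10.5 CPM in brain, a log2 difference of -5.74 ± 0.32. Lung and brain could not be separated for Col5a3 (adjusted p = 0.136), at 13.9 and 18.3 CPM against 11.3 and 15.2 CPM.

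Basement membrane chains had a different order. Lung held the highest level of 6 of the 9, and for 4 of them (Col4a1, Col4a3, Col4a4 and Col4a5) it passed the test against both other tissues. The pair Col4a3 and Col4a4 had the largest fitted excess of lung over bone in the family. Col4a3 had 63.2 and 70.1 CPM in lung, 2.69, 2.54 and 3.42 CPM in bone and 2.71 and 3.73 CPM in brain, a log2 difference of 4.56 ± 0.17 over bone (adjusted p = 1.98e-09). Col4a4 had 54.7 and 65.9 CPM in lung against 2.77, 3.20 and 4.07 CPM in bone, a log2 difference of 4.20 ± 0.18 (adjusted p = 5e-09). Neither chain differed detectably between brain and bone (adjusted p = 0.906 and 0.167).

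The ubiquitous chains Col4a1 and Col4a2 were the most abundant basement membrane collagens per kilobase in all 3 tissues. Col4a1 had 1272 and 1306 CPM in lung and 1053, 931 and 1062 CPM in bone, a log2 difference of 0.38 ± 0.14 (adjusted p = 0.0408). That call was lost when any of the 5 lung or bone control libraries was left out (adjusted p 0.0627 to 0.1535). It was also lost in edgeR with replicate number added as a block (adjusted p = 0.123). Col4a2, at 752 and 784 CPM in lung and 742, 643 and 739 CPM in bone, did not pass (adjusted p = 0.434). In brain both were far lower, Col4a1 at 72.9 and 91.4 CPM (log2 difference from bone -3.77 ± 0.17). Col15a1 and Col18a1, proteoglycan collagens of vessel basement membranes, were highest in bone. Col15a1 had 139, 101 and 114 CPM there and 47.0 and 52.8 CPM in lung (log2 difference -1.21 ± 0.16). Col7a1, the anchoring fibril of stratified epithelium, had 64.4, 31.8 and 47.9 CPM in bone 9.95 and 13.9 CPM in lung and 6.38 and 9.06 CPM in brain.

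Of the 7 cartilage chains, 5 were called lower in lung than in bone, beside 22.5% of all genes. Col10a1 and Col9a3 were not, with Col9a3 at 11.6 and 9.95 CPM in lung. Col11a1, the nucleator of thin cartilage fibrils, had 173, 235 and 91.1 CPM in bone, 25.4 and 24.8 CPM in brain and 0.0896 and 0.558 CPM in lung. The log2 difference of lung from bone was -8.95 ± 0.75 (adjusted p = 5.54e-05), the largest of any member in that comparison. Col9a2, a type IX chain, had 33.1, 50.4 and 38.5 CPM in bone against 0.179 and 1.02 CPM in lung (-6.04 ± 0.40). Col2a1, the main chain of cartilage fibrils, reached only 17.9, 12.3 and 9.53 CPM in the bone controls. Col9a3 ran the other way, with 16.3 and 21.6 CPM in brain above 12.7, 11.5 and 11.6 CPM in bone (log2 difference 0.53 ± 0.18, adjusted p = 0.0190). This last call was lost without bone control 3 (adjusted p = 0.0551) or brain control 2 (0.253), and with replicate number added as a block (0.0640).

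Among the other chains, 17 of 20 were highest in bone, a count not made over all genes. The type VI chains Col6a1, Col6a2 and Col6a3, which form beaded filaments around cells, were lower in lung than in bone (log2 differences -1.29, -1.29 and -1.09), with Col6a1 at 441, 482 and 333 CPM in bone, 143 and 194 CPM in lung and 60.1 and 44.6 CPM in brain. Col12a1, which bridges fibrils, had 888, 1214 and 533 CPM in bone and 81.4 and 106 CPM in lung (-3.21 ± 0.34). Col14a1, a related fibril-associated chain, was not separated between lung (126 and 181 CPM) and bone (168, 129 and 218 CPM, adjusted p = 0.645), and was low in brain at 7.02 and 4.80 CPM. Col13a1, a transmembrane collagen, was the only chain of these 20 called higher in lung than in bone, at 28.3 and 34.8 CPM against 10.1, 8.38 and 7.59 CPM.

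Of this class, 2 chains were higher in brain than in both other tissues, again a count not made over all genes. Col19a1, a fibril-associated chain made by neurons, had 40.3 and 33.0 CPM in brain and at most 1.48 CPM in any bone or lung control. Its log2 difference was 4.97 ± 0.25 over bone (adjusted p = 2.5e-09). Col25a1, a neuronal transmembrane collagen, had 50.6 and 44.2 CPM in brain, 8.47, 11.7 and 6.02 CPM in bone and 0 and 0.651 CPM in lung. The plot of control levels shows these rows with the brain points to the right.

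**Figure D2:**
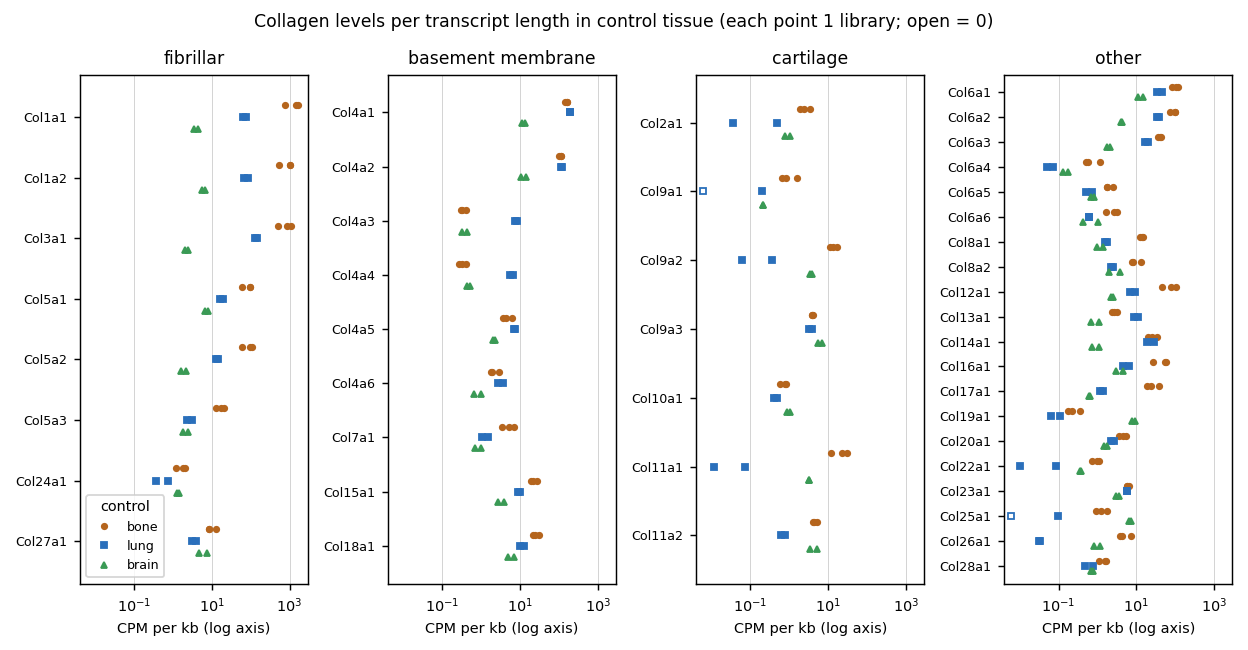
Level of each collagen gene in the 7 control libraries, as CPM per kilobase of transcript on a log axis, one panel per class, with bone as circles, lung as squares and brain as triangles (open symbols mark a count of 0). Bone points lie to the right of the others for 7 of the 8 fibrillar genes (not Col24a1), lung points for Col4a3 and Col4a4, and brain points for Col19a1 and Col25a1.

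Most genes that make and remodel collagen were also lower in brain than in bone. Of 55 genes listed for folding, hydroxylation, cross-linking, degradation and reception of collagen, 53 passed the filter on low counts. Of these, 49 were lower and 3 higher in brain than in bone, beside 37.0% and 38.9% of all genes. In lung against bone 32 were lower and 10 higher, beside 22.5% and 22.3% of all genes. Serpinh1, the collagen chaperone HSP47, had 337, 339 and 243 CPM in bone and 14.5 and 18.7 CPM in brain (log2 difference -4.35 ± 0.21, adjusted p = 1.47e-09). Lox, a cross-linking oxidase, had 45.0, 48.5 and 42.5 CPM in bone and 1.28 and 1.87 CPM in brain (-4.96 ± 0.23). All 7 degradation genes were lower in both lung and brain than in bone, a count not made over all genes. Among them were the neutrophil collagenase Mmp8 (-4.22 ± 0.24 in lung) and the gelatinase Mmp9 (-3.19 ± 0.23 in lung). Among receptors, the integrin chains Itga1 and Itga2 were higher in lung than in bone, by 2.00 ± 0.13 and 2.74 ± 0.21 on the log2 scale.

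The next question was whether collagens differ in bone after CTC exposure. Summed collagens ranged from 6124 to 91211 CPM over the 13 exposed libraries, a 14.9-fold span with a median of 19606 CPM, while the 3 controls lay at 27277, 27371 and 15972 CPM. Of the exposed libraries, 4 lay above every control (replicates 3, 8, 9 and 12), 4 below every control (replicates 1, 4, 5 and 10) and 5 between them. No member was called by edgeR, and none of the 44 reached an unadjusted p of 0.05. Among all 18278 genes the share called was 0.0%, and 2.51% reached an unadjusted p of 0.05. None had all 13 exposed libraries above, or all below, the controls, beside 0.0328% and 0.202% of all genes. DESeq2 also called no member. With limma-voom and quality weights 4 of the 44 members were called, a smaller share than the 2866 called among all 18278 genes. The 4 members were Col5a3 (log2 difference 1.34), Col15a1 (1.15) and Col4a4 (0.95), higher, and Col26a1 (-1.79), lower. In edgeR 36 of 44 fitted differences lay above 0 with a median of 0.71, beside a median over all genes of 0.08, or of 0.20 under upper quartile scaling.

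Fibrillar chains showed the width of this spread. Col1a1 ranged from 2198 (replicate 1) through a median of 4451 to 29805 CPM (replicate 3) in exposed bone. It was above every control in 4 libraries and below every control in 7, and the fitted log2 difference was 0.14 (95% interval -1.46 to 1.73). Col3a1 ranged from 545 through 3081 to 16597 CPM, with a fitted difference of 0.43 (-1.43 to 2.29). Col5a3, a minor type V chain, ranged from 47.5 through 181 to 817 CPM and was above every control in 8 of 13 libraries. Its fitted difference was 1.59 (-0.25 to 3.42).

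Summed basement membrane chains lay above every control in 8 libraries and below in 4, against 4 and 6 for summed fibrillar chains. Col4a1 had 260, 1317 and 4557 CPM as its lowest, median and highest value, above every control in 8 libraries and below in 5, with no exposed library inside the narrow control range of 931 to 1062 CPM. The fitted log2 difference was 0.89 (-0.75 to 2.53). Col15a1 was above every control in 10 of 13 libraries and below in 3, from 43.9 through 185 to 659 CPM. Its fitted difference was 1.38 (-0.32 to 3.08). Col4a4 was above every control in 9 libraries and below in 1, at a low level of 1.82 to 13.8 CPM.

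Cartilage chains were high in different libraries and did not all move together. Col2a1 reached 450, 686, 582, 573 and 161 CPM in exposed replicates 2, 3, 8, 9 and 10. Yet it was 0 in replicate 7 and 2.69 CPM in replicate 12, the bone libraries with the fewest genes detected. Controls had 9.53 to 17.9 CPM. The fitted log2 difference of 4.00 (-0.10 to 8.11) was the largest of the family, and its unadjusted p of 0.0551 the smallest. Col9a1, a partner of Col2a1 in cartilage fibrils, ranged from 0 to 66.1 CPM. Col9a2 was below every control in 9 of 13 libraries and above every control in 3. It had 13.8, 22.4 and 8.82 CPM in replicates 3, 9 and 10, where controls had 33.1, 50.4 and 38.5 CPM. Its highest value, 99.5 CPM, was in replicate 7, where Col2a1 was 0.

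In the class of other chains, Col6a1 ranged from 155 through 497 to 2255 CPM (fitted difference 1.03, -0.58 to 2.63) and Col8a1, a short chain of vessel walls, from 21.03 through 66.4 to 631 CPM. The hemidesmosome collagen Col17a1 ranged from 4.21 through 76.2 to 1289 CPM, a 307-fold span. Its highest libraries were replicates 13, 7, 8 and 2 at 1289, 726, 454 and 422 CPM, all above the highest control at 218 CPM. Col26a1, a secreted chain, was below every control in 12 of 13 libraries, with a median of 4.53 CPM against 10.9, 19.9 and 11.8 CPM. Replicate 7 was the exception at 39.7 CPM.

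Marker genes of other cell types also differed from library to library. The 4 collagen-rich libraries (replicates 3, 8, 9 and 12) had 3917 to 6057 CPM of fibroblast markers (8 genes) and 1328 to 1642 CPM of cartilage and joint markers (8 genes). Controls had 1200 to 1428 CPM and 93.3 to 160 CPM of these. Summed cartilage collagens were 1507, 1508 and 1178 CPM in replicates 3, 8 and 9 but 371 CPM in replicate 12, near the highest control at 344 CPM. The same 4 libraries had 2.69 to 947 CPM of marrow myeloid markers. The 4 collagen-poor libraries (replicates 1, 4, 5 and 10) had 17372 to 37939 CPM. Replicates 6, 7 and 13, with summed collagens between those of the controls, had 280, 385 and 328 CPM. The collagen-poor libraries had, in the same order, 781, 1106, 1316 and 810 CPM of fibroblast markers. Their cartilage and joint markers were 322, 144, 245 and 291 CPM, above every control except in replicate 4. Squamous and basal epithelial markers (6 genes) summed to 7365, 3726, 5326 and 1539 CPM in replicates 13, 7, 8 and 2, the libraries highest in Col17a1, and to 668 to 1271 CPM in controls. In replicate 1, where Col17a1 was lowest, Krt5, Krt14, Krt15, Dsg3 and Krt13 were at 0. Matn1 was at 0 in all 3 bone controls and in 8 of the 13 exposed libraries. Their part in the collagen differences was not tested.

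**Figure D3:**
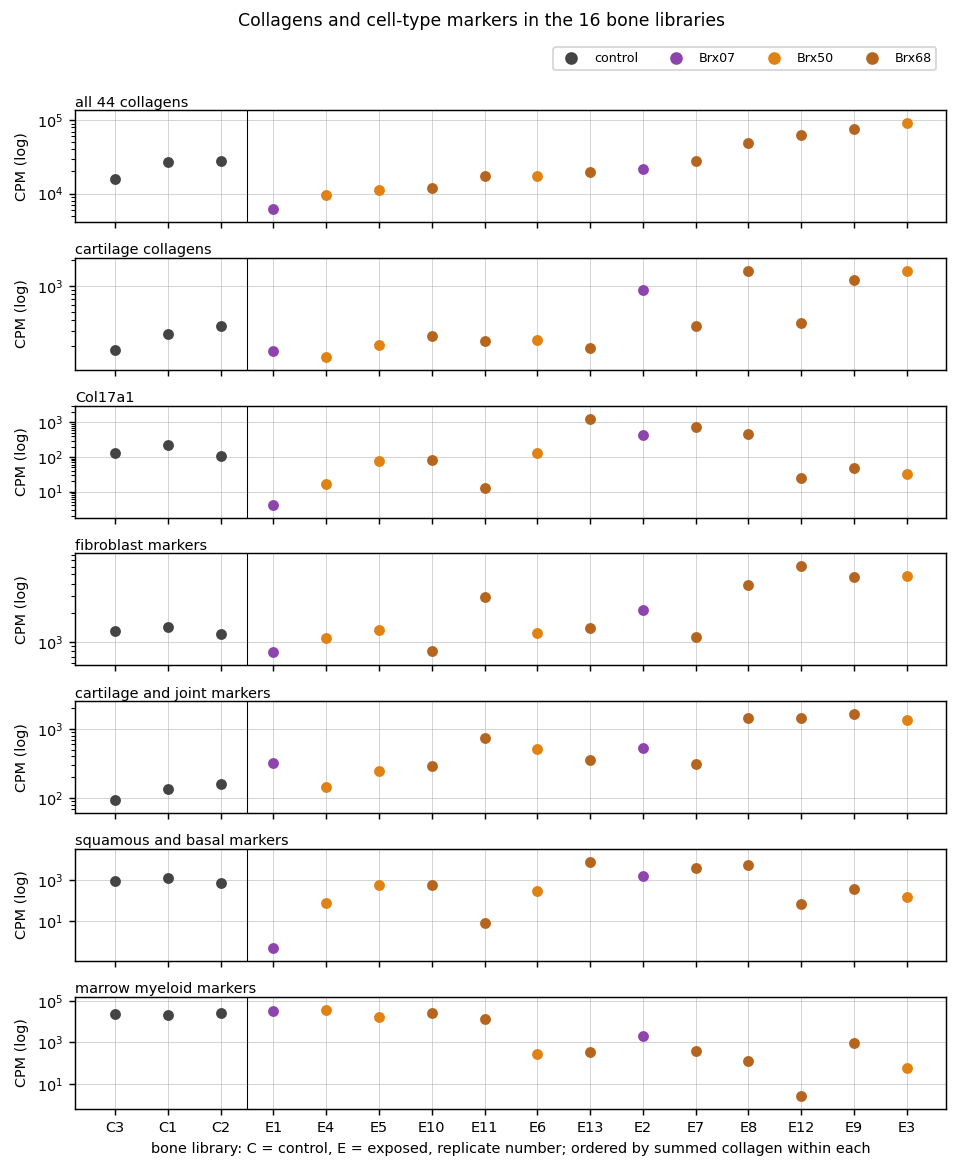
Summed collagens, cartilage collagens, Col17a1 and 4 marker sums in the 16 bone libraries, in CPM on log axes, with controls (C) left of the line and exposed libraries (E) right of it, ordered by summed collagen and colored by CTC line. Fibroblast and cartilage markers are highest at the right with the summed collagens, and Col17a1 runs with the squamous markers. Exposed replicate 12 has 1460 CPM of cartilage markers but 371 CPM of cartilage collagens, near the highest control (344 CPM). Marrow myeloid markers are low at the right, and also in exposed replicates 6, 7 and 13, whose summed collagens lie between those of the controls.

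The CTC line was compared within exposed bone, 7 Brx68 against 4 Brx50 libraries. Replicates 5 (Brx50) and 12 (Brx68), on opposite sides, share a title code. No member was called, and none of 44 reached an unadjusted p of 0.05, beside 0.0% and 4.83% of 19052 genes. DESeq2 and limma-voom likewise called no member. Each line held libraries at both ends, with summed collagens of 9627 to 91211 CPM in Brx50 and 12023 to 75596 CPM in Brx68. The 2 Brx07 libraries, a leg and a skull whose labels share a code, had 6124 and 21438 CPM. With Brx50 or Brx68 libraries alone set against the controls, again no member was called.

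In lung, 2 libraries set the collagen range. Summed collagens were 55126 CPM in exposed replicate 1 and 756 CPM in replicate 6, and 4674 to 8277 CPM in the other 5, beside 4854 and 5469 CPM in the controls. Of the 44 genes, 26 had their highest exposed value in replicate 1 and 32 their lowest in replicate 6. After the filter on low counts 40 members were tested, and Col9a1, Col19a1, Col22a1 and Col26a1 were not. No member was called or reached an unadjusted p of 0.05, beside 0.0% and 0.689% of 17132 genes, and neither DESeq2 nor limma-voom called any. None had all 7 exposed libraries above, or all below, the controls, beside 1.02% and 2.01% of all genes. The median fitted difference of 1.31 over the 40 members was 0.33 over 39 members without both of them, a comparison chosen after the values were seen. With the 3 Brx50 libraries alone it was -0.41 over 37 members.

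Type I and III chains in lung show the pattern by library. Col3a1 had 21406, 969, 861, 467, 549, 46.2 and 485 CPM in exposed replicates 1 to 7, against 705 and 784 CPM in controls. Replicate 1 was far above, replicate 6 far below, and the others lay on both sides of the controls. The fitted difference of 2.38 ± 2.16 became -0.40 without replicate 1. Col1a1 behaved alike, with 9509 CPM in replicate 1, 68.7 CPM in replicate 6 and 277 to 590 CPM in the other 5 (2.14 ± 1.88 with replicate 1, -0.18 without it).

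Col4a1, of the vessel basement membrane, had 2298, 2367, 1397, 1523, 1232, 144 and 1557 CPM in replicates 1 to 7, against 1272 and 1306 CPM in controls, and the fitted difference was 0.25 (95% interval -1.39 to 1.89). The alveolar chain Col4a3 had 18.3 CPM in replicate 1 and 5.08 CPM in replicate 6, but 72.0 to 134 CPM in the other 5, all of which lay above the controls at 63.2 and 70.1 CPM. Replicates 1 and 6 were also the libraries lowest in alveolar markers, at 113 and 424 CPM against 1319 to 4099 CPM in the rest. In replicate 1 the neighbouring X-linked chains Col4a5 and Col4a6 stood at 531 and 256 CPM, beside 44.8 to 49.0 and 18.1 to 24.2 CPM in controls. The hypertrophic cartilage chain Col10a1 was highest in replicate 3 at 15.7 CPM and at most 3.67 CPM in every other lung library. Fibroblast markers, with all 8 above 0 in every lung library, were 4905 CPM in replicate 1, 143 CPM in replicate 6 and 400 to 1390 CPM in the others. Their part in these levels was not tested.

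In exposed brain 35 of 42 fitted differences lay above 0, a count that was not made over all genes. Summed collagens were 1482, 3605 and 4249 CPM in the 3 exposed libraries and 790 and 920 CPM in the 2 controls, and all 4 classes lay above both controls in each exposed library. Of the 42 members that passed the filter on low counts (not Col6a4 and Col9a1), 30 had every exposed library above both controls, beside 19.9% of all 16734 genes. The 2 members with every exposed library below both controls were the neuronal chains Col19a1 and Col25a1, beside 18.6% of all genes. No member passed the adjusted threshold (smallest adjusted p = 0.224, Col8a1), where 0.00598% of all genes (1 gene) did. At an unadjusted p of 0.05, 22 of the 42 members passed, all higher in exposed brain, beside 9.14% of all genes. DESeq2 called 13 members and limma-voom 18, all of them higher, among 712 and 899 of the 16734 genes.

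The type I and III chains had the largest fitted differences. Col1a1 had 51.5, 564 and 607 CPM in exposed brain 1, 2 and 3 against 20.6 and 26.5 CPM in controls, a log2 difference of 4.05 ± 1.04 (adjusted p = 0.258). Col1a2 had 80.9, 466 and 522 CPM against 29.98 and 36.2 CPM (3.36 ± 0.80, adjusted p = 0.248). Col3a1 had 14.0, 260 and 550 CPM against 13.6 and 11.2 CPM (4.42 ± 1.38, adjusted p = 0.301). For all of these, exposed replicates 2 and 3 were many times the controls. Replicate 1, the shallowest library and the brain library with the fewest genes detected, was far below them. It was above both controls for Col1a1 and Col1a2 and close to the controls for Col3a1. Col5a2 had 22.6, 124 and 163 CPM against 14.0 and 10.5 CPM.

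Col8a1, a short chain of vessel walls, and the fibril-associated Col14a1 had the smallest p-values. Col8a1 had 22.4, 55.4 and 70.5 CPM in exposed brain against 5.10 and 7.33 CPM (2.93 ± 0.55), and its partner Col8a2 had 28.4, 111 and 69.2 CPM against 8.77 and 16.1 CPM (2.41 ± 0.60, adjusted p = 0.248). Col14a1 had 19.4, 35.4 and 46.4 CPM against 7.02 and 4.80 CPM (2.46 ± 0.48, adjusted p = 0.234). In these chains all 3 exposed libraries stood clear of the controls. Col12a1 had 32.4, 257 and 259 CPM against 26.2 and 28.8 CPM. Type VI chains fitted higher by 1.28 (Col6a1), 2.45 (Col6a2) and 2.09 (Col6a3).

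Fitted differences of basement membrane and cartilage chains had medians of 0.94 and 1.16, against 2.60 for fibrillar chains. Col4a1 had 141, 200 and 355 CPM in exposed brain against 72.9 and 91.4 CPM (1.45 ± 0.43, adjusted p = 0.290), and Col4a2 had 176, 128 and 269 CPM against 68.7 and 92.2 CPM (1.21 ± 0.39). Col15a1 and Col18a1 fitted higher by 0.94 and 0.68. Col9a3 had 38.0, 80.6 and 35.8 CPM against 16.3 and 21.6 CPM, and Col11a2 had 42.4, 132 and 47.8 CPM against 21.05 and 32.1 CPM. Of the neuronal chains, Col19a1 had 30.3, 8.16 and 25.5 CPM against 40.3 and 33.0 CPM, and Col25a1 had 18.7, 40.2 and 43.6 CPM against 50.6 and 44.2 CPM. Neither passed even an unadjusted p of 0.05.

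**Figure D4:**
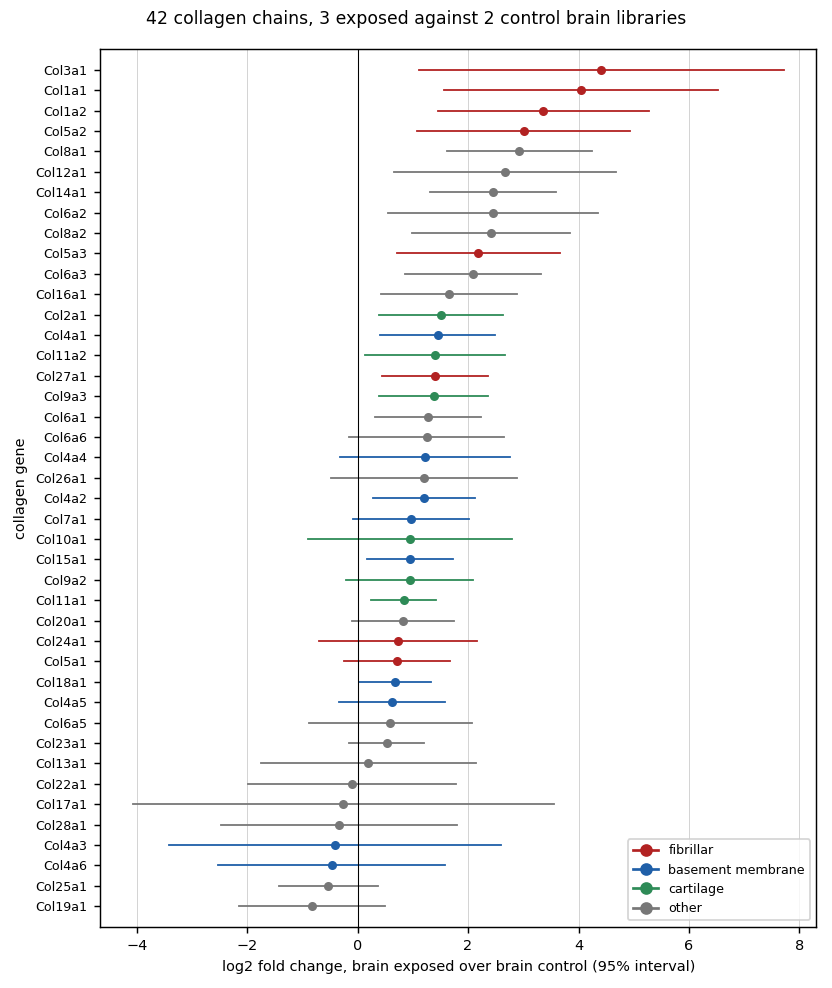
Fitted log2 fold change of 42 collagen genes, 3 brain exposed over 2 brain control libraries, with 95% intervals from edgeR and colors by class. The 4 highest points are fibrillar chains, from 3.01 for Col5a2 to 4.42 for Col3a1, and Col19a1 is lowest.

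The number of calls in brain depended on exposed replicate 1. Without it 7 members passed edgeR's adjusted threshold (Col1a1, Col1a2, Col3a1, Col5a2, Col6a2, Col8a1 and Col12a1), among 69 of 16474 genes, and without any other brain library none did. Marker sums moved as well. Marrow myeloid markers summed to 16.6, 2706 and 88.7 CPM in exposed brain 1, 2 and 3 and to 11.5 and 14.3 CPM in controls. Fibroblast markers were 50.8, 167 and 182 CPM against 71.6 and 76.5 CPM, with Lum, Dpt, Mfap5 and Clec3b at 0 in exposed replicate 1. Osteoblast markers were 265, 509 and 513 CPM against 59.8 and 103 CPM, of which Spp1, a gene that is not specific to bone cells, gave 200, 421 and 472 CPM, while Bglap and Bglap2 were at 0 in all 3. Neuron markers were 1870, 514 and 1526 CPM against 2908 and 2238 CPM. Leptomeningeal markers were 270, 400 and 271 CPM against 280 and 310 CPM. That sum is not specific to meninges here, since bone controls had 270 to 306 CPM. The part of these marker sums in the collagen differences was not tested.

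Most genes listed for folding, hydroxylation, cross-linking, degradation and reception of collagen had a fitted difference above 0 in exposed brain. Of 51 tested, 49 had a fitted difference above 0, a count that was not made over all genes. At an unadjusted p of 0.05, 25 passed, all higher, beside 9.14% of all genes, while none passed after adjustment. Lox had 3.96, 64.2 and 116 CPM in exposed brain against 1.28 and 1.87 CPM in controls (5.21 ± 1.39, adjusted p = 0.272). Loxl1, a related oxidase, had 6.99, 46.4 and 41.0 CPM against 3.35 and 2.67 CPM (3.32 ± 0.83, adjusted p = 0.248). In both, replicate 1 lay above the controls and far below replicates 2 and 3. Fkbp10, a collagen prolyl isomerase, had 18.9, 27.3 and 18.2 CPM against 6.38 and 7.86 CPM, with all 3 exposed libraries above both controls. In bone 1 of 54 pathway genes (Lox, 2.44 ± 1.11) and in lung none of 54 passed an unadjusted p of 0.05, beside 2.51% and 0.689% of all genes, and none passed after adjustment.

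Whether the exposure difference itself varies by tissue was tested as an interaction over all 30 libraries. No member passed for lung against bone, brain against bone or brain against lung, beside 0.0% of 21233 genes each time. At an unadjusted p of 0.05 the counts were 1, 1 and 0 of 44 members, beside 1.12%, 8.34% and 3.95% of all genes. They were Col6a5 for lung against bone (3.72) and Col1a1 for brain against bone (3.90). DESeq2 called no member in any of the 3. limma-voom with quality weights called 1, 4 and 3 members, among 319, 1645 and 454 of the 21233 genes, and Col1a1, Col1a2 and Col3a1 were among the called in both brain interactions. These 3 contrasts share controls and exposed libraries.

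In exposed bone and exposed lung, the ratio of the paired chains given here spanned less than the level of either chain. In exposed brain this did not hold for every pair: Col5a1 to Col5a2 spanned 5.51-fold beside 2.12-fold for Col5a1, and Col6a1 to Col6a2 spanned 4.31-fold beside 2.41-fold for Col6a1. The ratio of Col4a1 to Col4a2, in CPM per kilobase, lay between 1.13 and 1.55 in the 13 exposed bone libraries, a 1.36-fold span, while Col4a1 itself spanned 17.5-fold and Col4a2 23.2-fold. Over all 30 libraries the ratio lay between 0.779 and 1.65. These are the genes whose promoter windows share 78 bases. Col6a1 to Col6a2 spanned 1.33-fold in exposed bone and 1.29-fold in exposed lung, against 14.6-fold and 70.7-fold for Col6a1. The distant genes Col1a1 and Col1a2, on chromosomes 11 and 6, had a ratio of 0.999 to 1.44 in exposed bone while Col1a1 spanned 13.6-fold. The ratio of Col5a1 to Col5a2 spanned more, 2.33-fold, and Col3a1 to Col1a1, chains of separate molecules, spanned 4.92-fold. Both chains of a ratio are counted in the same library, so depth cancels.

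Proportions differed by tissue. The ratio of Col1a1 to Col1a2 was 1.44, 1.54 and 1.39 in bone controls, 0.922 and 0.880 in lung controls and 0.619 and 0.660 in brain controls. The 3 tissues did not overlap. In exposed brain it was 0.574, 1.09 and 1.05, with replicates 2 and 3 above both brain controls and replicate 1 below them. Col3a1 to Col1a1 was 2.04 and 1.85 in lung controls and 0.537 to 0.743 in bone controls, and lung exposed 6, the collagen-poor library, was at 0.716. Brain controls had an excess of the first chain for Col5a1 to Col5a2 (3.18 and 5.09) and Col6a1 to Col6a2 (3.45 and 2.74). In bone controls these ratios were 0.861 to 1.02 and 1.07 to 1.21. Exposed brain 1 kept the control pattern at 2.71 and 3.82, while replicates 2 and 3 had 0.491 and 0.789 for type V and 0.886 and 1.64 for type VI.

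In bone, 6 chain ratios were compared between exposed and control libraries by an exact two-sided permutation test on log2 ratios. Col1a1 to Col1a2 differed by -0.15 on the log2 scale, exposed over control (mean 0.39 ± 0.16 SD, n = 13, against 0.54 ± 0.07, n = 3, exact p = 0.0429). Col4a3 to Col4a4, in the 9 exposed libraries with at least 20 counts of each chain, differed by -0.63 (-0.60 ± 0.48 against 0.03 ± 0.15, n = 3, exact p = 0.0455). Neither passed after Benjamini-Hochberg adjustment over the 6 ratios (0.136 for both). The other 4 ratios had exact p-values from 0.611 to 0.986.

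**Figure D5:**
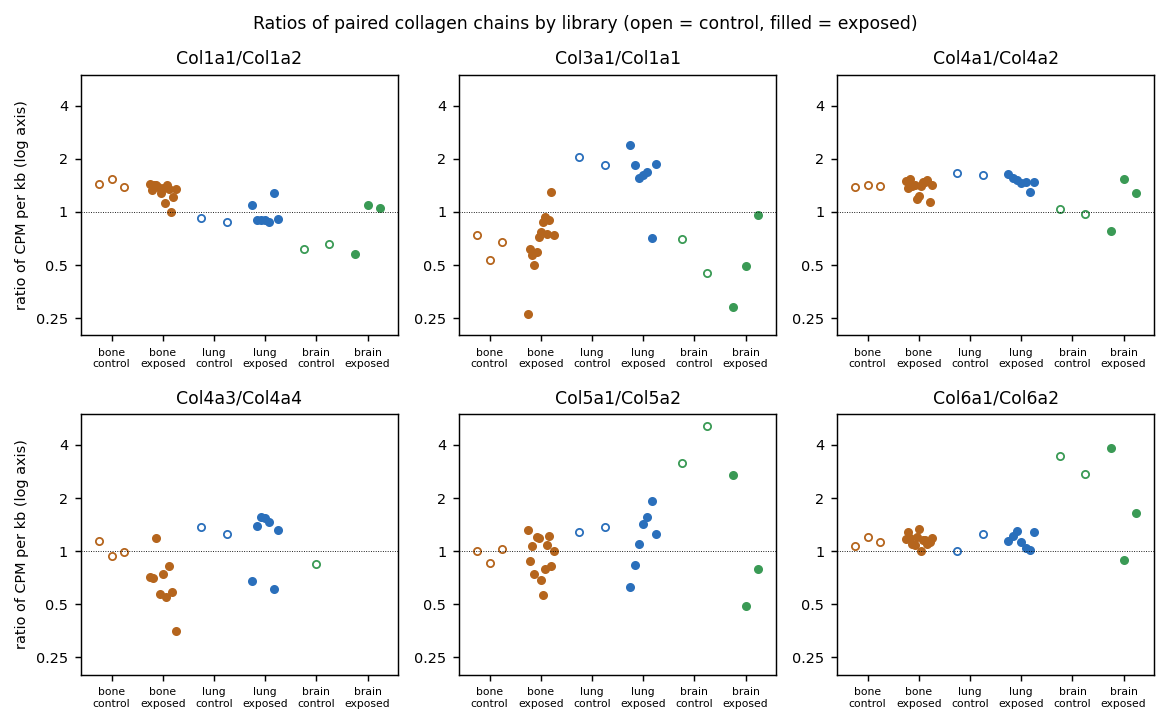
Ratios of 6 chain pairs in CPM per kilobase (log axis) by group, each point 1 library, open for controls and filled for exposed, omitting libraries under 20 counts of either chain. Col4a1/Col4a2 and Col6a1/Col6a2 form tight bands in bone and lung, Col1a1/Col1a2 steps down from bone to lung to brain controls, and Col5a1/Col5a2 and Col6a1/Col6a2 are highest in brain controls.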

How the data were processed

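Gene counts of 30 stromal RNA-seq libraries were deposited as 1 table of raw counts per gene. The authors' counting used STAR 2.5.2b with HTSeq, per the submitters' processing notes, which also list human and mouse builds without roles. Annotation, strand setting, handling of reads shared by related genes, and how human reads were set apart were not given in the sources used here. Chains with similar neighbours (Col6a4, Col6a5 and Col6a6) and genes that overlap on opposite strands (Col4a1 and Col4a2, by 22 bp) may therefore share or lose reads. Symbols were matched by gene identifier, transcript lengths and coordinates came from GENCODE M21 (GRCm38), and 884 rows without a symbol, 0.132% of counts, stayed in the library sizes. Groups came from the labels. Exposed replicates were numbered in accession order.

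Values are counts scaled to a library total of 1000000 (CPM), and CPM per kilobase of transcript where genes are compared. Tests were run in R 4.3.3 with edgeR 4.0.16 (filterByExpr, TMM, robust quasi-likelihood F-test, Benjamini-Hochberg adjustment over all genes tested, threshold 0.05), separately within bone, lung, brain, the 7 controls, all 30 libraries for interactions, and exposed bone for CTC lines. The steps were tested on simulated data. Intervals are 95% intervals of the fitted log2 difference. Chain ratios were tested by exact permutation (scipy 1.17.1). DESeq2 1.42.0, limma 3.58.1 (voom with quality weights), other scalings, no filter, a replicate block and leaving out each library were alternatives. Nothing in the labels says whether libraries are separate mice. Within each group any 2 libraries differed by more than counting error (chi-square of at least 9.64 per degree of freedom), which does not show that they come from separate mice. Members and gene lists were chosen with earlier results of these data known. Every member may be named. Values by library are given for members past the adjusted threshold or among the 2 most abundant of a class, and at most 2 genes are named per pathway list and comparison.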

Additional observations from a re-analysis of the deposited data

Results flagged for a closer look

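In 13 sets of values 1 library lay far from the others of its group, by the gap to its nearest neighbour on the log2(CPM + 1) scale (Dixon's criterion). In all 147 sets were checked, of which chance alone flags about 1 in 20, and 48 were marked when CPM was used without the log. Lung exposed 6 (Brx50) was lowest for Col4a1 (144 CPM, others 1232 to 2367), Col4a2 (109 CPM, others 815 to 1479), Col12a1 (15.5 CPM, others 77.7 to 177), Col23a1 (2.89 CPM, others 27.7 to 41.6) and summed basement membrane collagens (332 CPM, others 2379 to 5673). Lung exposed 1 (Brx07) was highest for Col5a3 (179 CPM, others 9.95 to 27.1) and Col6a4 (6.88 CPM, others 0.335 to 1.31). Lung exposed 3 (Brx42) was highest for Col10a1 (15.7 CPM, others 0.922 to 3.67).

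Among the 4 Brx50 bone libraries, replicate 3 was highest for Col1a1 (29805 CPM, others 2884 to 3791), Col1a2 (19037 CPM, others 1872 to 2665), Col11a2 (219 CPM, others 32.9 to 45.1) and Col14a1 (672 CPM, others 168 to 210). Among the 7 Brx68 bone libraries, replicate 7 was highest for Col26a1 (39.7 CPM, others 1.75 to 7.75).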

How the results depend on the processing

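The number of collagen genes called between control tissues stayed within 1.5 times under other scalings, no filter on low counts, DESeq2 and limma-voom. With a replicate block it was 36 (lung over bone), 39 (brain over bone) and 34 (lung over brain), beside 38, 39 and 32 without it. The block used the replicate numbers of the titles. Libraries with the same title number did not deviate together (correlations -0.081 to 0.020). For the brain controls these numbers differ from those in the count column names, and pairing by the column names was not checked. With 2 libraries in the lung and brain groups, deviations within a group mirror each other, so the check cannot exclude pairing. No pairing was assumed in the main fits. Leaving out 1 control library gave 34 to 38, 35 to 39 and 29 to 35 calls. With limma-voom 4 genes were called in exposed bone, and 1, 4 and 3 in the interactions of lung with bone, brain with bone and brain with lung, where edgeR called 0. Exposed brain gave 2 calls without the filter, 13 with DESeq2, 18 with limma-voom and 0 to 7 on leaving out 1 library. Counts stayed at 0 to 0 on leaving out any library for exposed bone, exposed lung, the 3 interactions, the CTC lines and the chain ratios.

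Some fitted log2 differences that passed no test changed sign. Col1a1 in exposed bone (0.14) was -0.037 with limma-voom and ran from -0.22 to 0.355 on leaving out 1 library (-0.22, -0.05 and -0.15 without exposed replicate 3, exposed replicate 9 or control 3). In exposed lung Col1a1 (2.14) was -0.14 with DESeq2, -0.049 with limma-voom, -0.74 with Brx50 only and -0.18 to 2.335 on leaving out 1 library, the lowest without replicate 1. Col3a1 there (2.38) was -0.34, -0.20, -1.06 and -0.40 to 2.573 under the same settings, and -0.15 without replicates 1 and 6. Col4a1 (0.25) was -0.41 with Brx50 only. The cause was not tested. Upper quartile scaling moved the median of all genes in exposed bone from 0.08 to 0.20 and in the CTC line comparison from -0.01 to -0.12. With 3 against 2 libraries an exact test cannot go below p = 0.2, and with 7 against 2 not below 0.0556.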
